A study of Mus musculus with 4 samples.

Results

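The p53 axis was followed through 10 genes chosen by name, namely Trp53 itself, its inhibitors Mdm2 and Mdm4, its cofactor Zfp385a, and the response genes Cdkn1a, Ccng1, Sesn1, Zmat3, Trp53inp1 and Aen. All 10 were found among the 21506 genes of the deposited tables, each read from its row of greatest exon length. The cells were 32Dclone3, a mouse myeloid line that grows in interleukin-3, here supplied by WEHI-conditioned medium in both groups along with fetal bovine serum. The control group carried the XZ virus alone, and the other group carried XZ-miR-125b, which expresses the miRNA miR-125b. Each group had 2 libraries of poly(A) RNA, and the infections of each condition were made with different virus supernatants. No DNA-damaging agent or other p53-activating treatment is named, so the values describe growing, stably infected cells of 1 line. Mature miRNAs carry no poly(A) tail, and the level of miR-125b itself is not measured here.

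The transcription factor p53 is held at a low level by Mdm2, a ubiquitin ligase that is also a p53 target, and by the related protein Mdm4. When damage or stress frees p53, it switches on genes that halt the cell cycle, such as Cdkn1a (p21), and genes that promote repair or cell death. miR-125b is abundant in blood-forming stem cells, and several p53-network messenger RNAs have been reported among its targets. As a rule a miRNA lowers messenger RNAs whose 3′ UTR pairs with its seed.

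The seed and the sites that could pair with it are shown first, because the question is whether the genes with the largest differences carry them. The mature mouse miR-125b-5p (RefSeq, GRCm38.p6, the same in the Mir125b-1 hairpin on chromosome 9 and the Mir125b-2 hairpin on chromosome 16) is printed with its seed, bases 2 to 8, in capitals.
miR-125b-5p: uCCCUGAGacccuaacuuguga
The seed match CTCAGGG (7mer-m8), the same with a following A (8mer) and the shorter TCAGGG (6mer), which lies within both, were searched in the sense strand, taking the longest GENCODE M21 3′ UTR that a gene has. An 8mer or 7mer-m8 was found in 3 of the 10 genes, and in 14.9% of the 17649 genes of the tables that could be joined by symbol to a 3′ UTR. The strongest site of these 3 genes, and the 6mer of Trp53, are given as messenger sequence from GRCm38, with the match in capitals.
Zfp385a 8mer (chr15:103314788-103314817, minus strand): gggaacaccccagatCTCAGGGAaccccgc
Trp53inp1 7mer-m8 (chr4:11170333-11170362, plus strand): aagcaaaaatctattCTCAGGGtcagccat
Ccng1 7mer-m8 (chr11:40748820-40748849, minus strand): aaacataggcagcagCTCAGGGccctggac
Trp53 6mer (chr11:69591475-69591504, plus strand): tgctgtcttatgactTCAGGGctgagacac
The 3′ UTR of Trp53inp1 is long (4420 bases), and 33.1% of genes whose 3′ UTR was between 0.8 and 1.25 times that length held an 8mer or 7mer-m8. For Ccng1 (2316 bases) that share was 23.2% and for Zfp385a (1100 bases) 11.6%. No match of any kind was found for Mdm2, Mdm4, Cdkn1a or Sesn1, while Zmat3 had a single 6mer and Aen a pair of them. The Aen pair began at bases 3139 and 3175 of a 3′ UTR of 3793 bases, but the counted Aen row has 2580 exon bases in all. For Mdm4, too, the searched 3′ UTR (5436 bases) was longer than the counted row (3490 bases).

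The libraries held between 10.4 and 12.6 M reads over all rows, and the members between 289 and 6626 reads each. Control replicate 2 stood apart from the other 3 libraries, and how it differed from the other control went with the GC content of transcripts (Spearman's rho 0.476 across 10247 genes, against 0.0514 for the miR-125b pair). Results below are therefore given with and without it where that matters. Of the 10 myeloid progenitor markers, 9 reached 1 RPKM (reads normalised to exon length in kb and to library size) in at least 2 libraries, with Kit the exception, and they summed to between 989.8 and 1840 RPKM. The erythroid list summed to at most 10.1 RPKM, with Hbb-b1 at 0. B lymphoid markers summed to at most 0.268 RPKM (Ms4a1 and Pax5 at 0), T lymphoid markers to at most 0.679 and fibroblast markers to at most 0.322 (Col1a2, Col3a1 and Dcn at 0). In such bulk samples, fewer cells of a type and less RNA per cell cannot be told apart.

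Among the 10 genes, the messenger RNAs of Trp53inp1, Zfp385a, Cdkn1a, Aen and Zmat3 stood lower in miR-125b cells, at between 40.0% and 69.5% of the control mean. Trp53 and Mdm4 differed little. Of the other response genes, Ccng1 had overlapping groups and Sesn1 stood higher. None passed limma's test after Benjamini-Hochberg adjustment over the 10310 genes with at least 1 RPKM in at least 2 libraries, where 0 genes (0%) passed. At an unadjusted p under 0.05, 4 of the 10 were lower (Trp53inp1, Zfp385a, Aen and Cdkn1a) and 0 higher, where 5.21% of all tested genes were lower and 4.17% higher. The groups did not overlap for 7 genes that were lower, against 20.4% of all tested genes, and for 1 gene that was higher, against 22.3%. The genes were listed with earlier results of these data known, so these counts describe them and carry no test of their own. Their median log2 difference was -0.41, against 0.024 over all tested genes, and it was -0.28 without control replicate 2. Leaving out control replicate 1 instead gave a median of -0.49. It was -0.39 when miR-125b replicate 1 was dropped and -0.37 when its partner library was. Over all tested genes, these 4 medians lay between -0.0072 and 0.037. With control replicate 2 left out, 8 of the 10 lay below 0 and 2 above. The 4 genes named above were then at -0.89 (Trp53inp1), -0.68 (Zfp385a), -0.50 (Aen) and -0.41 (Cdkn1a). Sesn1 was then at 0.46, against 0.29 with all libraries.

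**Figure D1:**
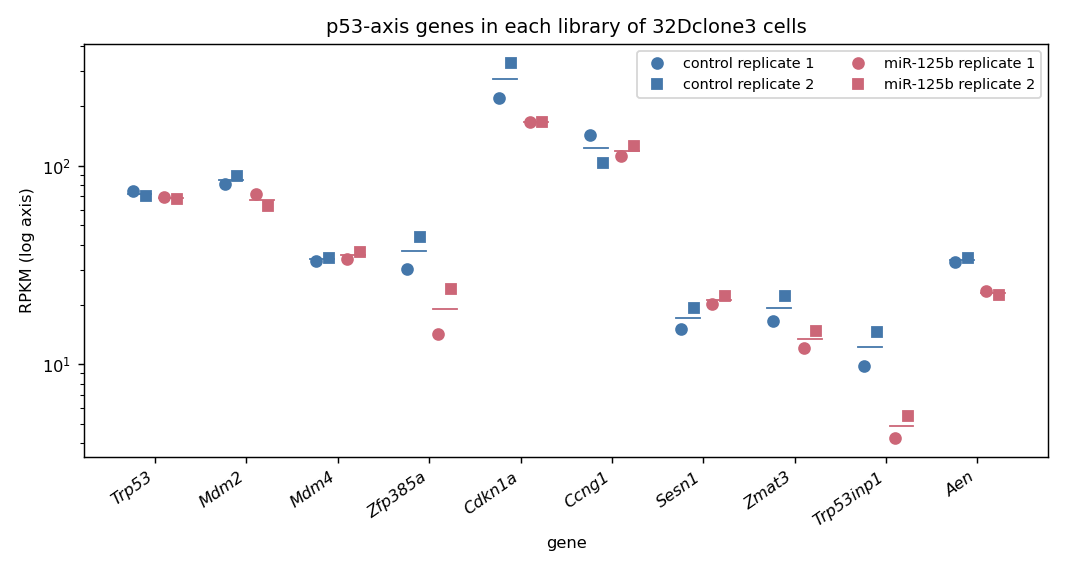
RPKM of the 10 genes (log axis) in the 2 control and 2 miR-125b libraries, with circles for replicate 1, squares for replicate 2 and a line at each group mean. Both miR-125b points lie below both control points for Zfp385a, Cdkn1a, Zmat3, Trp53inp1 and Aen, while those of Mdm4 and Ccng1 overlap the controls.

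Trp53 (chromosome 11, 69393861 to 69405375 in mm9, plus strand, 11 exons) was at 74.2 and 70.7 RPKM in the controls, against 69.9 and 67.6 RPKM in the miR-125b cells. The lower control value and the higher miR-125b value were almost equal. Its log2 difference, taken on log2(RPKM + 1) like all those below, was -0.073 ± 0.18 (SE, n = 2 per group), with a 95% interval from -0.51 to 0.37 and a limma adjusted p of 0.900. A processed pseudogene of Trp53 exists in the mouse genome, and the handling of reads that match several places was not stated. The related factors were close to absent, with 0 reads in every library for Trp63 and at most 5 reads in any row for Trp73.

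The 2 annotated Trp53 transcripts differ by 96 bases (chromosome 11, 69404756 to 69404851 in mm9) that the longer one keeps, giving a p53 with an alternative carboxy terminus. The longer row exceeded the shorter by 27 and 7 reads in the controls, against 13 and 12 reads in miR-125b cells. Per kb, this was 32.6% and 9.48% of the density over the other exons in control, and 14.7% and 15.1% with miR-125b. The miR-125b libraries lay between the controls, and at this depth no difference in the use of this segment was detectable.

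Mdm2 (chromosome 10, 117125961 to 117147772, minus strand) was at 80.6 and 88.7 RPKM in the controls, against 71.6 and 62.5 RPKM in miR-125b cells. The groups did not overlap, but the log2 difference of -0.33 ± 0.19 (SE, n = 2 per group) had a 95% interval from -0.80 to 0.13 and did not pass limma's test (adjusted p = 0.610). Mdm4, which binds and silences the p53 activation domain, was at 33.1 and 34.3 RPKM in the controls, against 33.7 and 36.9 RPKM in miR-125b cells (chromosome 1, 134886422 to 134921925, minus strand). Its groups overlapped, with a log2 difference of 0.065 ± 0.18 that turned to -0.067 when the trend with GC content was removed. Within each library the ratio of Mdm2 to Mdm4, both in RPKM, was 2.43 and 2.59 in control and 2.12 and 1.69 with miR-125b. Cdkn2a, whose ARF product restrains Mdm2, had 0 reads in both of its rows in all 4 libraries. Counts of 0 allow up to 3 reads, here between 0.256 and 0.311 RPKM, and this limit covers counting error only.

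Zfp385a, known as Hzf, is a zinc finger protein that steers p53 towards arrest genes, and its gene (chromosome 15, 103144326 to 103170517, minus strand) carries the 8mer printed above. It was at 30.2 and 44.0 RPKM in the controls, against 14.1 and 24.0 RPKM in miR-125b cells. Both miR-125b libraries were below both controls, although the spread within each group was wide. The miR-125b mean was 51.4% of the control mean, a log2 difference of -0.95 ± 0.30 (SE, n = 2 per group) with a limma adjusted p of 0.466. It was -0.59 without miR-125b replicate 1, and between -1.31 and -0.68 with any other library left out. Its transcript was the richest in GC of the 10 (62.5%), it differed by 0.53 between the control libraries, and it was at -0.75 with the trend with GC content removed.

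Cdkn1a encodes p21, which binds cyclin-dependent kinases and stops the cell cycle. It was the most abundant of the 10 in every library, at 219.6 and 329.8 RPKM in the controls, against 165.5 and 165.7 RPKM in miR-125b cells (chromosome 17, 29227931 to 29237667, plus strand). The miR-125b libraries were nearly equal, and the controls differed from each other more than the nearer one differed from them. Its log2 difference was -0.70 ± 0.25 (SE, n = 2 per group; limma adjusted p = 0.50). That value was -0.41 without control replicate 2 and -0.99 without control replicate 1, and -0.66 with the trend with GC content removed. No seed match was found in its 3′ UTR.

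Cdkn1a has a pair of annotated start sites 2786 bases apart, each with a first exon of its own. The row that starts downstream held 5014 and 7463 reads in the controls, against 4274 and 4027 reads in miR-125b cells. It exceeded the upstream row by 240 and 837 reads in control and by 230 and 263 reads with miR-125b, which is 4.79%, 11.2%, 5.38% and 6.53% of its reads in that order. Control replicate 2 was the library that stood out, and the other control lay beside the miR-125b libraries. These differences are small remainders of large counts, and they set 90 bases of 1 first exon against 116 bases of the other.

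The upstream start is shown because, among the promoter windows searched, it holds the only one with a pair of p53 half-sites. Windows from 250 bases before to 50 bases after a start (RefSeq, GRCm38.p6) were at hand for 8 of the 10 genes, 13 windows in all. Trp53inp1 and Zmat3 had no window and were not searched. Each was searched for the consensus p53 half-site, a palindrome of 10 bases that reads the same on both strands. Matches were found in 7 of these 13 windows, and in 8.36% of all 32851 windows. The window of the upstream Cdkn1a start held 2 matches, beginning at positions -73 and -51 from the start. Such a pair, with at most 13 bases between its matches, was present in 0.0731% of all windows. The 10 bases right after the second match (tgacatgttc) differ from the consensus in their first base only, and were not counted. One of the windows of Aen, which held 1 match beginning 10 bases after the start, is printed for comparison, with the half-sites of both in capitals.
Cdkn1a (chr17:29090729-29091028, plus strand): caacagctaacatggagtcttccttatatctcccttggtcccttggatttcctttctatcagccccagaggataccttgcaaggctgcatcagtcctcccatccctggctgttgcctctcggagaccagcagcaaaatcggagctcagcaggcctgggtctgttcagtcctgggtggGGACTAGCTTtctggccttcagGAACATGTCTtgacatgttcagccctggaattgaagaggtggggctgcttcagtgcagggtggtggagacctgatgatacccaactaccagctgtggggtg
Aen (chr7:78895677-78895976, plus strand): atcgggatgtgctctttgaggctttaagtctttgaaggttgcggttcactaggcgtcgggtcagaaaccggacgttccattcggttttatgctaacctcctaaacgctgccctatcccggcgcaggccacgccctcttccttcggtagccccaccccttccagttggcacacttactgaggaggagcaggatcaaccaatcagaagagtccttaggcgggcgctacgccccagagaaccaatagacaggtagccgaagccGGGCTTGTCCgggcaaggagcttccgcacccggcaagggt
The other windows with a match were 1 each of Sesn1 (from -173), Mdm2 (from -186), Ccng1 (from -185) and Trp53 (from -75), and the second window of Aen, which overlaps the first and holds the same match. Both Mdm4 windows, both Zfp385a windows, the other Sesn1 window and the downstream Cdkn1a window held none. A match is a description of the letters, not a site shown to be bound. Of the 6 genes with a match, Cdkn1a, Aen, Mdm2 and Trp53 had groups that did not overlap and lay lower with miR-125b, Sesn1 lay higher and Ccng1 had overlapping groups. Of the genes with windows but no match, Zfp385a lay lower and Mdm4 had overlapping groups.

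Ccng1 encodes cyclin G1, a p53 target that brings phosphatase PP2A to Mdm2. It was the second most abundant of the 10, at 142.2 and 102.6 RPKM in the controls, against 111.5 and 124.9 RPKM in miR-125b cells (chromosome 11, 40562054 to 40568788, minus strand). Both miR-125b values lay between the controls. Its log2 difference of -0.033 ± 0.23 (SE, n = 2 per group; limma adjusted p = 0.962) had a 95% interval from -0.58 to 0.52, and its 3′ UTR carries a 7mer-m8 and a 7mer-A1 site. It was -0.27 without control replicate 2 and 0.20 without control replicate 1, so no direction could be given. With a transcript GC content of 40.8%, it was the member that differed most downward between the control libraries (-0.47).

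Sesn1, which encodes the stress-induced mTORC1 inhibitor sestrin 1, was at 15.03 and 19.1 RPKM in the controls, against 20.02 and 22.0 RPKM in miR-125b cells (chromosome 10, 41530380 to 41628242, plus strand). It was the 1 member whose miR-125b libraries both lay above both controls, although the nearest values were close. The log2 difference was 0.29 ± 0.20 (SE, n = 2 per group; limma adjusted p = 0.647), with 0.13 left without control replicate 1 and 0.46 without control replicate 2. Zmat3 encodes an RNA-binding zinc finger protein of the p53 response, and its messenger RNA was at 16.6 and 22.0 RPKM in the controls, against 12.0 and 14.8 RPKM in miR-125b cells (chromosome 3, 32233716 to 32264587, minus strand). Its groups did not overlap, with a log2 difference of -0.49 ± 0.21 (limma adjusted p = 0.535) that was -0.29 without control replicate 2. An opposite-strand gene, 4930429B21Rik, shares 2.08% of the Zmat3 exon bases, and the other 9 members shared none with another gene of the tables.

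Trp53inp1 encodes a stress protein that promotes p53 phosphorylation and autophagy, and it showed the largest difference of the 10. It was at 9.84 and 14.6 RPKM in the controls, against 4.25 and 5.52 RPKM in miR-125b cells (chromosome 4, 11083588 to 11101524, plus strand). The higher miR-125b library stood well below the lower control. The miR-125b mean was 40.0% of the control mean, and the log2 difference of -1.15 ± 0.24 (SE, n = 2 per group) had a 95% interval from -1.72 to -0.58. A more negative difference was found for 0.873% of all tested genes, and the limma adjusted p was 0.363. Leaving out libraries in turn gave from -1.41 to -0.89. With 38.8% GC it was the poorest in GC of the 10, but it differed by 0.52 between the control libraries, upward like the GC-rich Cdkn1a and Zfp385a, and removing the trend with GC content gave -1.32.

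Aen encodes an exonuclease that aids p53-dependent apoptosis. It was at 32.7 and 34.4 RPKM in the controls, against 23.4 and 22.2 RPKM in miR-125b cells (chromosome 7, 86040813 to 86053719, plus strand). Replicates of each group were close together, and this gave Aen the steadiest difference among the 4 lower genes. The log2 difference was -0.53 ± 0.18 (SE, n = 2 per group; limma adjusted p = 0.473), running from -0.57 to -0.50 with libraries left out in turn, and -0.54 with the trend with GC content removed. A segment of 114 bases that only the longer Aen row holds added 10 and 22 reads in control and 9 and 12 reads with miR-125b, so the groups overlapped there.

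**Figure D2:**
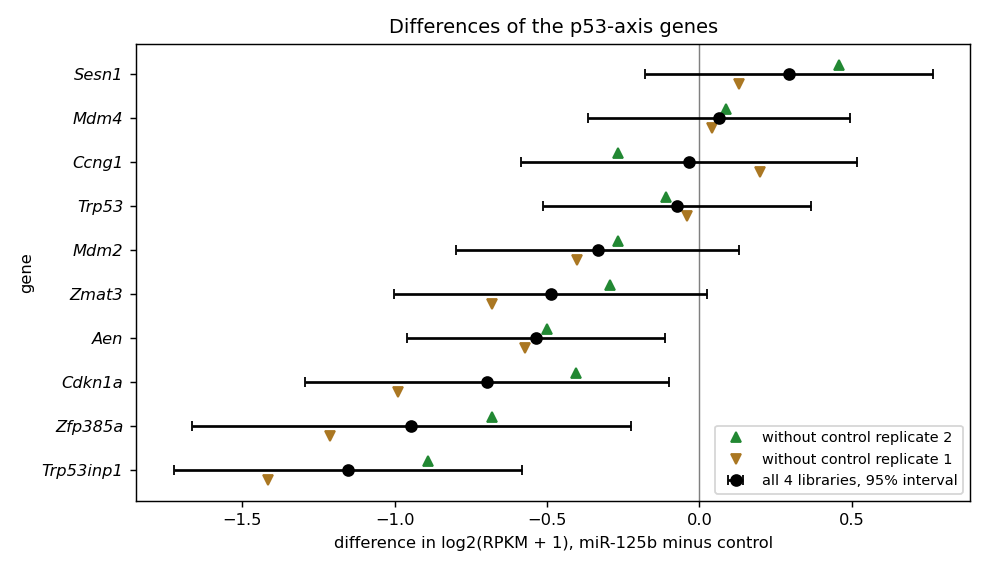
Difference in log2(RPKM + 1), miR-125b minus control, for the 10 genes. Black circles with bars are the estimates with their 95% intervals from all 4 libraries, green triangles the estimates without control replicate 2 and brown triangles those without control replicate 1. Trp53inp1 is the most negative at -1.15, Sesn1 the most positive at 0.29, and Ccng1 changes sign with the control left out.

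By level, Cdkn1a and Ccng1 ranked first and second in both groups, in RPKM, and Trp53inp1 last. In control cells Mdm2 and Trp53 followed, at 84.7 ± 5.70 and 72.4 ± 2.48 RPKM (SD, n = 2 each), while in miR-125b cells they were at 67.0 ± 6.47 and 68.8 ± 1.65 RPKM and did not differ beyond their spread. Next came Zfp385a at 37.1 ± 9.78, Mdm4 at 33.7 ± 0.831 and Aen at 33.5 ± 1.24 RPKM in control, which also did not differ beyond their spread. With miR-125b, Zfp385a was at 19.1 ± 6.94 RPKM, beside Aen and Sesn1, from which it did not differ beyond its spread. The ratio of Cdkn1a to Trp53 was 2.96 and 4.67 in control and 2.37 and 2.45 with miR-125b, and that of Trp53inp1 to Trp53 was 0.133 and 0.206 in control and 0.0607 and 0.0816 with miR-125b. Both ratios were lower in each miR-125b library than in either control.

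**Figure D3:**
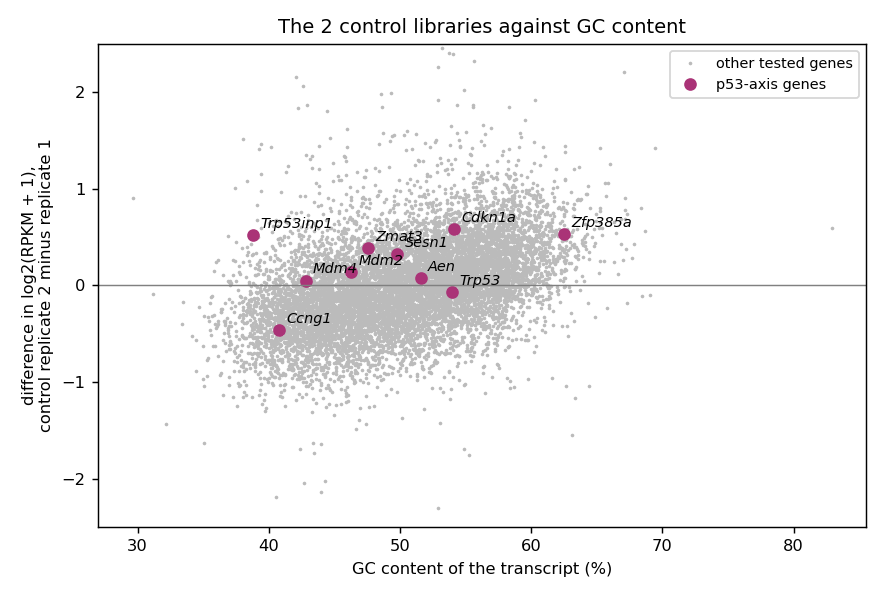
Difference in log2(RPKM + 1) between the control libraries, replicate 2 minus replicate 1, against the GC content of the transcript, for 10247 tested genes in grey (13 lie beyond the axis) and the 10 p53-axis genes in purple. Ccng1 lies with the GC-poor genes at -0.47 and Cdkn1a with the higher ones at 0.58, and Trp53inp1 is at 0.52 with a GC content of 38.8%.

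The wider p53 response was read from a list of 73 further target genes, of which 55 passed the filter on low values. Their median log2 difference was -0.20, against 0.024 over all tested genes, with 37 below 0 and 18 above. At an unadjusted p under 0.05, 8 of the 55 lay lower (5.21% over all tested genes) and 1 higher (4.17%), leaving 46 on neither side, and 0 passed over all genes. Without control replicate 2, the median was -0.042, with 3 lower and 2 higher at that threshold (5.46% and 5.90% over all tested genes), so most of this shift was not seen with that library left out. Without control replicate 1, the median was -0.29, with 20 lower and 5 higher, where 14.0% of all tested genes were lower and 15.2% higher. Without miR-125b replicate 1 it was -0.15, with 1 lower and 1 higher, against 3.99% and 2.49% of all tested genes. Between the control libraries the list differed by a median of 0.17, in the direction that makes control replicate 2 higher.

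Among these, the death gene Bax was at 192.2 and 245.8 RPKM in the controls, against 159.5 and 157.3 RPKM in miR-125b cells, a log2 difference of -0.45 ± 0.21 (SE) that was -0.28 without control replicate 2. Triap1, an inhibitor of apoptosis of small size whose 3′ UTR holds an 8mer, was at 36.8 and 35.6 RPKM in the controls, against 23.0 and 25.7 RPKM in miR-125b cells. Both miR-125b libraries lay below both controls. Lrdd, the gene of the death-domain protein PIDD, was at 12.8 and 18.5 RPKM in the controls, against 9.97 and 8.85 RPKM in miR-125b cells. The stress kinase gene Plk3 was at 2.18 and 3.26 RPKM in the controls, against 1.54 and 1.22 RPKM in miR-125b cells, and the early response gene Ier5 at 20.6 and 38.1 against 14.0 and 16.0 RPKM. Sytl1, a synaptotagmin-like gene, was at 1.99 and 3.45 against 0.947 and 1.06 RPKM. Without control replicate 2, the log2 difference went from -0.87 to -0.44 for Ier5 and from -0.66 to -0.41 for Lrdd. It went from -0.63 to -0.42 for Plk3 and from -0.86 to -0.58 for Sytl1, while Triap1 went from -0.56 to -0.58. For these 5 genes, named for an unadjusted p under 0.05, the groups did not overlap, which that choice makes likely. Their limma adjusted p lay between 0.464 and 0.506. Among the 55 tested genes of the list, groups did not overlap for 20 lower and 7 higher, against 20.4% and 22.3% of all tested genes.

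Other abundant response genes showed no such separation. Rps27l was at 125.8 and 99.3 RPKM in the controls, against 88.1 and 143.8 RPKM in miR-125b cells, Ddit4 at 77.8 and 161.6 against 87.1 and 97.3 RPKM, and Pml at 48.1 and 64.7 against 49.8 and 54.8 RPKM. All 3 had overlapping groups, and the counts of the ribosomal protein gene Rps27l are uncertain because near-identical gene copies exist. Ikbip was the exception in direction, at 6.68 and 4.59 RPKM in the controls, against 10.3 and 11.5 RPKM in miR-125b cells, a log2 difference of 0.86 ± 0.22 (SE; limma adjusted p = 0.420), and its 3′ UTR holds a 7mer-m8. Several well-known response genes were near 0 throughout, including Pmaip1 (Noxa), with at most 1 read in a library, and Plk2, with 0 reads, where 3 reads amount to at most 0.109 and 0.103 RPKM.

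Genes that act on p53 lay on both sides of 0. Of 36 regulators and cofactors 33 were tested, with a median of 0.081, 12 below 0 and 21 above. At an unadjusted p under 0.05, 0 were lower and 1 was higher, a share near the 4.17% over all tested genes. That gene was Atr, a kinase of replication stress, at 9.71 and 5.91 RPKM in the controls, against 10.9 and 18.2 RPKM in miR-125b cells (limma adjusted p = 0.506), and it did not pass without control replicate 2 or without miR-125b replicate 2, where 0 regulators were higher. Without control replicate 1, 5 were higher and 2 lower, which for the higher genes is near the 15.2% over all tested genes and for the lower ones under the 14.0%. The ubiquitin ligase gene Huwe1 was at 114.6 and 98.2 RPKM in the controls, against 127.9 and 128.1 RPKM in miR-125b cells. Usp7, which deubiquitinates Mdm2 and p53, was at 48.5 and 36.0 against 48.7 and 45.2 RPKM, with overlapping groups, as had Npm1 and Rpl23, whose processed pseudogenes make their read counts uncertain.

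Downstream of p21, the DREAM complex shuts off many cell-cycle genes, and 28 of these were listed. Here 27 stood higher with miR-125b and 1 lower, with a median log2 difference of 0.29, against 5447 of 10310 tested genes higher and a median of 0.024. The groups did not overlap for 18 of them, all higher, against 22.3% of all tested genes. At an unadjusted p under 0.05 there were 1 higher (Kif23) and 0 lower, a share near the 4.17% over all tested genes. Mki67, the proliferation marker gene, was at 101.7 and 67.0 RPKM in the controls, against 106.5 and 123.6 RPKM in miR-125b cells. Ccnb2, which encodes cyclin B2, was at 52.2 and 49.0 against 60.5 and 86.7 RPKM, and the mitotic kinesin gene Kif23 was at 15.5 and 9.52 against 18.0 and 23.8 RPKM. Top2a, at 208.7 and 141.7 against 198.0 and 218.6 RPKM, and Mcm5, at 83.1 and 58.5 against 83.0 and 87.5 RPKM, had overlapping groups.

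Much of that difference lay with 1 library. In control replicate 2 these genes stood a median of 0.51 below control replicate 1, on the log2 scale, and their median GC content was 47.8%, against 50.4% over all tested genes. Without control replicate 2, 22 of the 28 stood higher and 6 lower, with a median of 0.15. Of the 10310 tested genes, 5032 stood higher in that setting, with a median of -0.0072, so a smaller difference remained without that library. Without control replicate 1 the median was 0.55, with 27 of the 28 higher. It was 0.33 without miR-125b replicate 1 (25 higher) and 0.25 without miR-125b replicate 2 (27 higher). Over all tested genes these medians were 0.037, 0.013 and 0.030. With the trend with GC content removed, 27 of the 28 were higher and the median was 0.29. Cenpa, a centromere histone gene named after its values were seen, was the lower one, with a log2 difference of -0.036. These genes are expressed together in cycling cells and are not independent of each other.

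**Figure D4:**
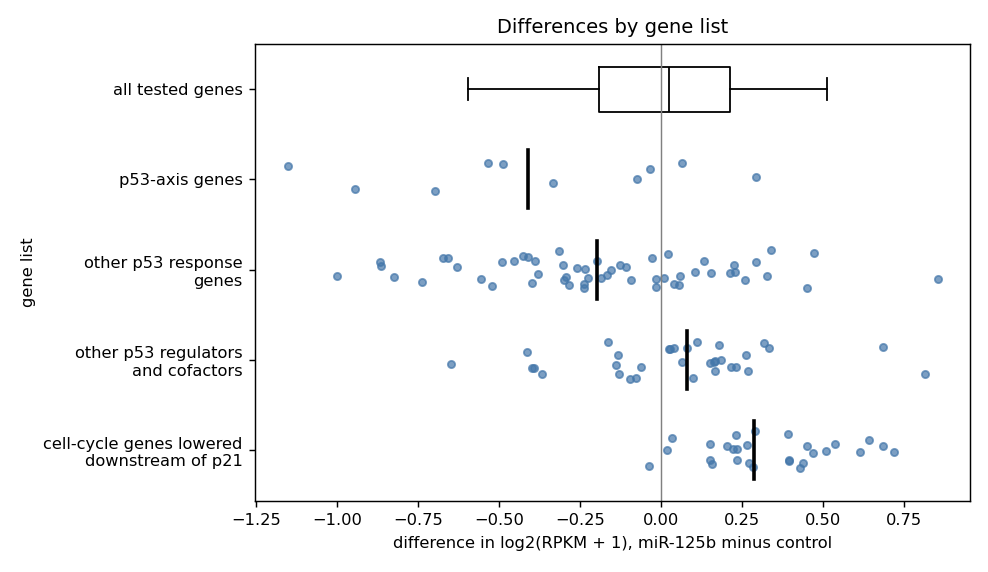
Difference in log2(RPKM + 1), miR-125b minus control, by gene list. Points are genes and thick lines medians, with the 10 p53-axis genes left out of the lists below them, and the box for all 10310 tested genes shows the median, the quartiles and the 5th and 95th percentiles. The p53-axis genes and other response genes lie mostly to the left (medians -0.41 and -0.20) and the cell-cycle genes to the right (median 0.29).

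A last list held 15 p53-network genes reported as miR-125b targets, and since reports on miR-125b may rest partly on these libraries, their direction is not independent evidence. Beside the members Trp53, Trp53inp1 and Zfp385a, it had 9 further genes that were tested, with a median of 0.023, 4 below 0 and 5 above. With 1 control library left out, that median was -0.13 (replicate 1) or -0.067 (replicate 2). Leaving out 1 miR-125b library instead gave -0.073 (replicate 1) or 0.012 (replicate 2). With all libraries, 1 of these 9 genes was lower at an unadjusted p under 0.05 and 0 higher. Of all tested genes, 5.21% were lower at that threshold and 4.17% higher. The lower gene was Bak1, an effector of mitochondrial apoptosis with an 8mer, at 69.2 and 67.3 RPKM in the controls, against 53.8 and 42.9 RPKM in miR-125b cells. Ppp1ca, a phosphatase subunit gene with a 7mer-m8, was at 229.0 and 215.3 against 182.1 and 169.8 RPKM. Bbc3, the p53-induced death gene also called Puma, was at 15.5 and 43.0 RPKM in the controls, against 10.8 and 14.3 RPKM in miR-125b cells, so that its difference of -1.001 ± 0.44 (SE) was -0.29 without control replicate 2 and -1.71 without control replicate 1. Cdkn2c, another kinase inhibitor gene, was at 14.98 and 23.2 against 18.9 and 19.2 RPKM, with overlapping groups. Igfbp3, Plagl1 and Edn1 did not pass the filter, with at most 6 reads in a library.

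The genes whose pattern over the 4 libraries was most like that of Cdkn1a were sought among 6071 tested genes with a mean of at least 10 RPKM. By the root mean square distance between log2(RPKM + 1) values centred on each gene's mean, the nearest were Malat1, Rbm38, Kifc3, H3f3b and Tyk2, at distances between 0.0221 and 0.0331. All 5 had their highest value in control replicate 2 and nearly equal values in the miR-125b libraries. Being chosen for likeness to Cdkn1a over these same libraries, they share this pattern by selection. Malat1, for example, was at 318.7 and 485.6 RPKM in the controls, against 235.8 and 234.9 RPKM in miR-125b cells.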

How the data were processed

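Per the file headers, the authors deposited 1 table per library with 26982 RefSeq transcript rows and RPKM values. The submitters' processing notes name mm9 as build. Aligner, counting program and use of strand were not stated. Multiplied by exon length, the RPKM values gave whole reads (tolerance 0.001 reads) in 100% of rows of each library. Over all rows these summed to 10.4 to 12.6 M per library, and transcripts of the same gene can share reads. With 1 row per gene they summed to 7.73 to 9.48 M. One row per gene was kept, of greatest exon length. The unit being RPKM, limma 3.58.1 (R 4.3.3, 2-sided moderated test with a trended prior) was fitted to log2(RPKM + 1) for genes with at least 1 RPKM in at least 2 libraries, with the group as the only term and Benjamini-Hochberg adjustment over all genes, at a threshold of 0.05. The script was checked on simulated data. Residual degrees of freedom were 2 and prior ones 4.63. Nothing says that replicates came from separate cultures beyond the separate infections, so p-values measure the spread between these libraries. The members and gene lists were chosen with earlier results of these data known. From each list, the text names genes at an unadjusted p under 0.05 (at most 6) and the 4 of highest mean RPKM. GC content is that of the GENCODE M21 transcript. Its trend was removed per library by lowess (span 0.3), an alternative chosen after seeing the data. Other alternatives changed the pseudocount, the filter, the scaling, the row per gene, the model, the replicate block and the libraries used.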

Additional observations from a re-analysis of the deposited data

How the results depend on the processing

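With 17 settings in all, the count of genes called over all genes was 0 in the reported analysis and 12 with the replicate number as a block. With that block, 5 of the 10 p53-axis genes were lower at an unadjusted p under 0.05. Of the 10310 tested genes, 1085 passed that threshold with the block, 57.0% of them lower. The labels do not say that equal numbers share a culture or day, and deviations of same-numbered libraries were uncorrelated across genes (r = 0.0208). With libraries left out in turn, the count ran from 0 to 91, genes at an unadjusted p under 0.05 from 332 to 3007 (967 with all libraries), p53-axis genes lower at that threshold from 1 to 5 (4 with all) and genes of the other lists from 6 to 50 (12 with all). In these fits the lone library of a group was assumed to vary like the other group, and the cause of the shifts was not tested. With the trend with GC content removed and without control replicate 2, 1 gene was called. The highest counts of genes at an unadjusted p, 3007 and 50, came without control replicate 1, the lowest of p53-axis genes without miR-125b replicate 1. No p53-axis gene was called in any of the 16 alternatives. Trp53, Mdm2, Zfp385a, Cdkn1a, Sesn1, Zmat3, Trp53inp1 and Aen kept their direction in all 16, which for genes whose groups do not overlap is no sign of stability when libraries are left out. Ccng1 turned to 0.0088 with upper quartile scaling, to 0.20 without control replicate 1 (-0.27 without control replicate 2) and to 0.048 without miR-125b replicate 1, and Mdm4 to -0.067 with the trend with GC content removed. The share of genes at an unadjusted p under 0.05 that were lower was 55.5%, and 44.9% with upper quartile scaling. With 2 libraries per group, differences of the size seen for Mdm2 or Sesn1 could not be told from the spread.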
